A study of Mus musculus with 18 samples.

Results

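The genes described here encode enzymes of 3 linked pathways of central carbon metabolism, namely glycolysis, the pentose phosphate pathway and the tricarboxylic acid (TCA) cycle. They were chosen by symbol from a list of 41 genes, and 38 of them had a row in the deposited counts. These were 15 of 18 glycolytic genes, 7 of 7 pentose phosphate genes and 16 of 16 genes of pyruvate dehydrogenase and the TCA cycle, out of 9787 features named by a symbol. Hk1, Gapdh and Ldhb were not analysed here. All 38 passed the filter on low counts in both assays.

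Ribosome footprints, the pieces of mRNA that translating ribosomes shield from nuclease, and total RNA were sequenced from cultured mouse GTML medulloblastoma cells. GTML cells come from tumours of mice that carry a human MYCN transgene, driven through the GLT1 promoter and a tetracycline response element in hindbrain progenitors, so all groups overexpress human MYCN. The groups were Rapalink-1 at 50 nM, rapamycin at 5 nM and DMSO, each for 3 h, with 3 replicates in each assay and 18 libraries in all. Rapamycin inhibits the growth kinase complex mTORC1 allosterically and acts on the S6 kinase arm. Rapalink-1 links rapamycin to an inhibitor of the ATP site and also acts on the eIF4E-binding proteins. The comparison of the drugs isolates neither arm, since their doses differ as well.

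Glycolysis splits glucose into pyruvate in the cytosol, and lactate dehydrogenase can divert that pyruvate to lactate. The pentose phosphate pathway branches off after the first step and yields NADPH and ribose phosphate for nucleotides, and the TCA cycle oxidises acetyl-CoA from pyruvate in mitochondria. Cells driven by MYC proteins are known for high expression of glycolytic genes, and mTORC1 is known to act on these pathways through the transcription factors HIF1, MYC and SREBP as well as through translation.

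Footprint libraries held between 7692625 and 14150068 reads and RNA libraries between 6788365 and 13300292. Of 11 markers of medulloblastoma and neural progenitors, 8 had a row, with summed levels of 1730 to 1760 RPM (reads scaled to the library total) in Rapalink-1 footprints, 1140 to 1160 in rapamycin footprints and 1070 to 1130 in DMSO footprints. Their sums in RNA were 947 to 1020 RPM with Rapalink-1, 926 to 949 with rapamycin and 1020 to 1070 with DMSO. Itgam and Hbb-bs, the 2 of 8 microglia and blood markers with a row, summed to 26.0 to 29.0 RPM in Rapalink-1, 58.1 to 73.2 in rapamycin and 52.1 to 78.3 in DMSO footprints. In RNA they summed to 98.8 to 109 RPM with Rapalink-1, 107 to 122 with rapamycin and 105 to 148 with DMSO. The part of these markers in the results was not tested. Cnp, the 1 of 6 oligodendrocyte markers with a row, had 14.6 to 17.8 footprint RPM with Rapalink-1, 15.1 to 16.6 with rapamycin and 11.9 to 15.1 with DMSO. None of the 8 vascular and fibroblast markers had a row. The library names carry the tag RP-B for Rapalink-1 and DMSO footprints and RP for rapamycin footprints, and any effect of what this tag stands for cannot be told apart from rapamycin. No label says that replicates were separate cultures, so p-values measure the spread between these samples, which may be technical. Changes are relative to the other genes of a library because no spike-in is recorded, and fewer cells and less RNA per cell cannot be told apart.

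Rapalink-1 lowered the translational efficiency of genes in all 3 pathways. Translational efficiency is the change of footprints relative to that of RNA, and calls rest on edgeR's quasi-likelihood test with an adjusted p under 0.05. Of 38 members, 24 fell and 0 rose against DMSO, where 19.9% of all 10988 genes tested fell and 22.3% rose. At an unadjusted p under 0.05, 2 members were higher (Slc2a1 and Hk2), and DESeq2 called 0. Of these, Slc2a1 was called higher with a block for each treatment and replicate number, shared by RNA and footprints (0.39). It was also called higher without rapamycin replicate 2 (0.41) or 3 (0.42). Hk2 was called higher without Rapalink-1 replicate 3 (0.30), and both were without DMSO replicate 3 (0.50 and 0.30). The falls comprised 9 of 15 glycolytic, 4 of 7 pentose phosphate and 11 of 16 TCA cycle genes. The median log2 change was -0.27 in glycolysis, -0.76 in the pentose phosphate pathway and -0.43 in the TCA cycle, against 0.06 over all genes. With library totals in place of TMM factors, the median of all genes shifted upward by 0.37 and stood at 0.43, and the members split into 10 higher and 14 lower, with pathway medians of 0.10, -0.39 and -0.07. On both scales the 3 pathway medians were below that of all genes, so the falls are to be read relative to it.

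**Figure D1:**
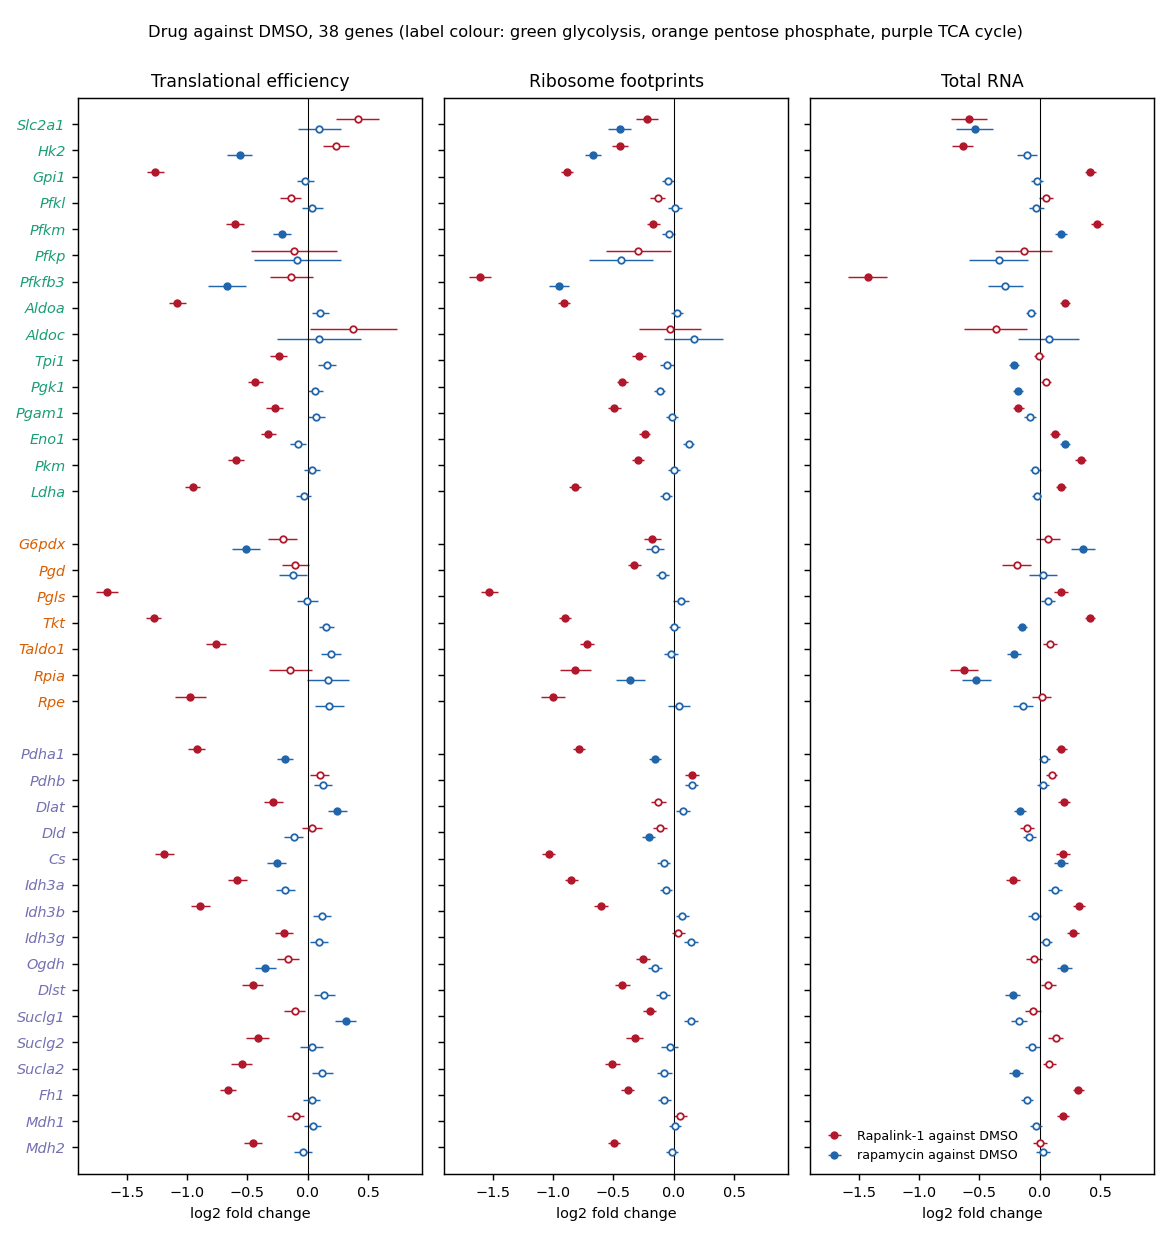
Log2 fold change (x axis) of each of 38 genes (rows) for Rapalink-1 against DMSO (red, upper point of each pair) and rapamycin against DMSO (blue, lower point), in translational efficiency, footprints and RNA. Bars are standard errors, and filled points passed an adjusted p under 0.05. In translational efficiency 24 red points are filled, all left of 0, while in RNA 15 are filled right of 0 and 6 left of it.

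The members with the largest falls in efficiency were Pgls and Tkt in the pentose phosphate pathway, Gpi1 and Aldoa in glycolysis and Cs in the TCA cycle. Messengers that depend most on mTORC1 often begin with a C followed by pyrimidines, the 5' terminal oligopyrimidine motif of ribosomal protein mRNAs. The windows below, from RefSeq (GRCm38.p6), show 20 bases before and 20 after the listed start for 4 of these genes, for 2 members that were not called in efficiency (Pdhb and Mdh1) and for the ribosomal protein gene Rps18 as an example of such a start. Capitals mark the first 10 transcribed bases.
Pgls, chr8:71592164-71592203, plus strand: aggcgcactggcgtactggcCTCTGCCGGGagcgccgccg
Tkt, chr14:30549111-30549150, plus strand: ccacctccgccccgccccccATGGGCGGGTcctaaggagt
Gpi1, chr7:34230317-34230356, minus strand: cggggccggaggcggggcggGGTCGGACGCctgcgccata
Cs, chr10:128337707-128337746, plus strand: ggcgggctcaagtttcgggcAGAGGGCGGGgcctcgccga
Pdhb, chr14:8172973-8173012, minus strand: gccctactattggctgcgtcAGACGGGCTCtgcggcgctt
Mdh1, chr11:21571915-21571954, minus strand: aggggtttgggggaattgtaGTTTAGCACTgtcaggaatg
Rps18, chr17:33955646-33955685, minus strand: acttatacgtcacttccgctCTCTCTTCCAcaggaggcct
A start with C and 4 pyrimidines after it was found in 823 of 32851 listed promoters (2.51%) and in 0 of the 54 listed for members, on the strand of the gene. Of the 38 members, 37 had a listed promoter, and Idh3a had none. Listed starts need not be those used in these cells, and the match is a description of these letters alone.

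Of the glycolytic genes between the first phosphorylation and the split of fructose bisphosphate, Gpi1, Aldoa and Pfkm fell in efficiency. Gpi1, which turns glucose 6-phosphate into fructose 6-phosphate, had 211, 219.9 and 211 footprint CPM (counts relative to the TMM-scaled library size) with Rapalink-1, 387, 379 and 381 with rapamycin, and 400.1, 401 and 385 with DMSO. Its RNA was at 246, 249 and 262 CPM with Rapalink-1, 191, 181 and 184 with rapamycin, and 182, 189 and 195 with DMSO. The Rapalink-1 libraries were therefore the lowest in footprints and the highest in RNA, without overlap. Its efficiency changed by -1.26 ± 0.07 (log2, SE; n = 3 each), which is 0.417 times the DMSO value (edgeR adjusted p = 5.8e-22).

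Aldoa, the aldolase that splits fructose bisphosphate, had 364, 364 and 344 footprint CPM with Rapalink-1, 643, 717 and 694 with rapamycin, and 654, 664 and 697 with DMSO. Its efficiency changed by -1.08 ± 0.07, while its RNA was higher by 0.21 ± 0.04 (adjusted p = 0.000107). Pfkm, a phosphofructokinase subunit, had 184, 198 and 189 footprint CPM with Rapalink-1 and 206, 219 and 218 with DMSO, beside 186, 187 and 196 and 137, 143 and 127 RNA CPM. Its fall in efficiency (-0.60 ± 0.08, adjusted p = 3.32e-09) thus lay mostly in higher RNA (0.47 ± 0.05) with a small change in footprints (-0.17 ± 0.06). The footprint call of Pfkm was lost without Rapalink-1 replicate 1 (-0.15). Pfkl, another subunit, was not called in efficiency (-0.14 ± 0.09, adjusted p = 0.188), and Pfkp and Aldoc were too low to resolve, at 2.06 to 6.27 CPM in every library.

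In the lower steps, all 6 genes with a row fell in efficiency with Rapalink-1. Ldha, which makes lactate from pyruvate, had 1606, 1680 and 1709 footprint CPM with Rapalink-1, 2912, 2832 and 2678 with rapamycin, and 2804, 2919 and 3071 with DMSO. Its RNA was at 1893, 1911 and 1956 CPM with Rapalink-1, 1696, 1644 and 1671 with rapamycin, and 1734, 1725 and 1636 with DMSO. The efficiency of Ldha was 0.517 times the DMSO value (log2 -0.95 ± 0.06, adjusted p = 2.16e-19). Pkm, the pyruvate kinase, had 2532, 2648 and 2672 footprint CPM with Rapalink-1 and 2993, 3355 and 3303 with DMSO, and its efficiency changed by -0.59 ± 0.07 (adjusted p = 2.38e-10). Pgk1, which makes ATP from bisphosphoglycerate, changed by -0.43 ± 0.06, Eno1, the enolase, by -0.32 ± 0.07, Pgam1, the mutase, by -0.27 ± 0.07, and Tpi1, the triose isomerase, by -0.24 ± 0.07. The last 3 of these lay above 0, uncalled, on the scale of library totals (0.04, 0.10 and 0.13), and the call of Tpi1 was lost without DMSO replicate 3 (-0.15). Counts of Eno1 stayed within 10% of those of its copy Eno1b in all 18 libraries, and those of Pgk1 within 10% of a row without a symbol, so both are uncertain.

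**Figure D2:**
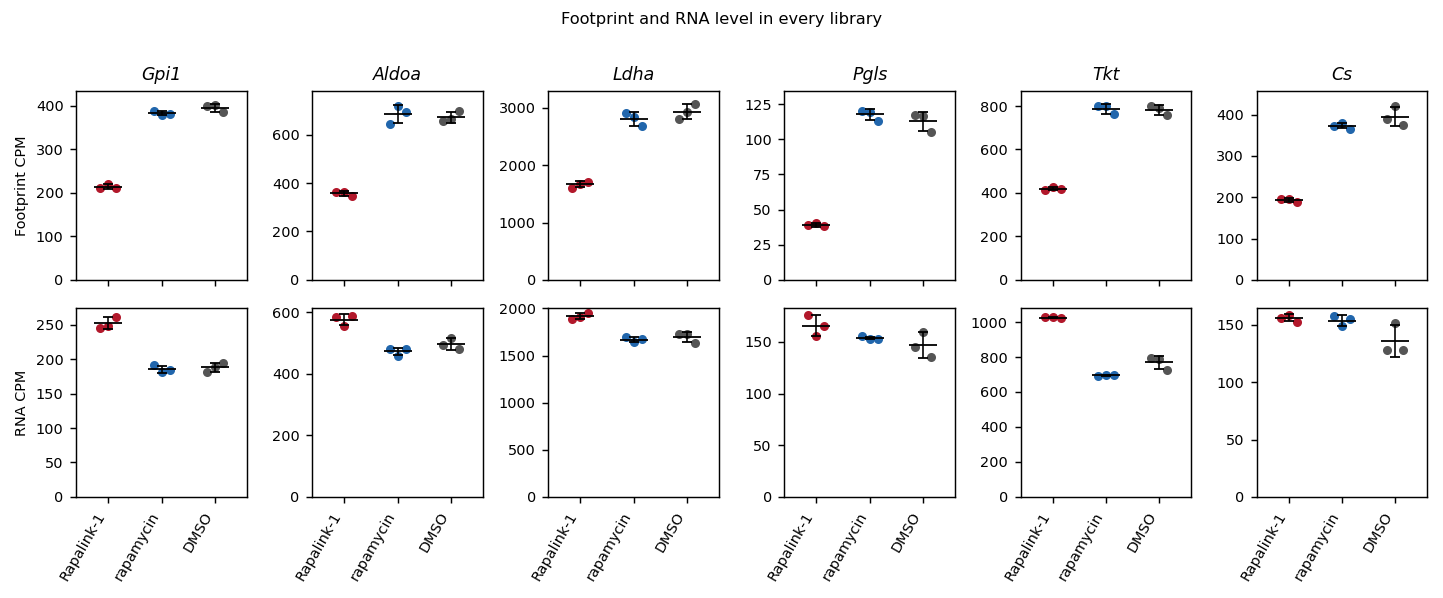
Footprint CPM (upper row) and RNA CPM (lower row) of 6 genes in every library, grouped by treatment on the x axis. Points are the 3 libraries, and the line and bar are mean and SD. In the upper row the Rapalink-1 points sit below all others, as for Pgls at 38.03 to 40.4 CPM against 105 to 117 with DMSO.

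In footprints 7 of 7 pentose phosphate genes were called lower with Rapalink-1 against DMSO, beside 28.0% of all genes. For G6pdx the libraries overlapped between Rapalink-1 and DMSO, and with library totals its change was 0.10 and not called. Pgls, the lactonase of the oxidative branch, had 39.0, 40.4 and 38.03 footprint CPM with Rapalink-1, 120.3, 119.7 and 113 with rapamycin, and 117, 116 and 105 with DMSO. Its RNA was at 176, 156 and 165 CPM with Rapalink-1, 155, 153 and 153 with rapamycin, and 145, 159.9 and 135 with DMSO. Rapalink-1 footprints lay below both other groups, while RNA overlapped between Rapalink-1 and DMSO. The efficiency of Pgls was 0.316 times the DMSO value (log2 -1.66 ± 0.09, adjusted p = 2.96e-22), the largest fall among the members. Its small rise in RNA (0.17 ± 0.06) was lost without Rapalink-1 replicate 1 (0.13), DMSO replicate 1 (0.16) or DMSO replicate 3 (0.12).

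Tkt, the transketolase of the non-oxidative branch, had 413, 427 and 417 footprint CPM with Rapalink-1, 800.1, 799 and 761 with rapamycin, and 801, 789.7 and 758 with DMSO. Its RNA was at 1027, 1028 and 1021 CPM with Rapalink-1, 690.4, 697 and 698 with rapamycin, and 793, 790.3 and 724 with DMSO, so that RNA and footprints moved in opposite directions. The efficiency of Tkt changed by -1.28 ± 0.06 (adjusted p = 4.43e-24). Rpe, the ribulose phosphate epimerase, and Taldo1, the transaldolase, changed by -0.97 ± 0.13 and -0.76 ± 0.08 in efficiency. G6pdx, the first and NADPH-forming enzyme, and Pgd, the second NADPH-forming one, were not called in efficiency (-0.21 ± 0.12 and -0.10 ± 0.12). Their footprints were lower by call (-0.18 ± 0.07 and -0.33 ± 0.05), that of G6pdx not without Rapalink-1 replicate 1 (-0.14) or 2 (-0.17) or DMSO replicate 2 (-0.14) or 3 (-0.16).

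Subunits of the same mitochondrial complexes got different calls in efficiency, and the difference between subunits was not tested. Pdha1, the catalytic alpha subunit of pyruvate dehydrogenase, had 208, 212 and 201 footprint CPM with Rapalink-1, 319, 325 and 317 with rapamycin, and 357, 348 and 364 with DMSO. Pdhb, the beta subunit of the same enzyme, had 339, 332 and 309 with Rapalink-1, 327, 313 and 337 with rapamycin, and 318, 279 and 283 with DMSO. Pdha1 was lowest with Rapalink-1 without overlap, whereas the Pdhb libraries of Rapalink-1 and DMSO overlapped. The efficiency of Pdha1 changed by -0.92 ± 0.07 (adjusted p = 8.18e-17) and that of Pdhb by 0.10 ± 0.08 (adjusted p = 0.315). Pdhb was the single member called higher in footprints (0.15 ± 0.06), a call that was lost without Rapalink-1 replicate 1 (0.13) or 2 (0.14) or DMSO replicate 2 (0.12) or 3 (0.12). The E2 subunit Dlat changed by -0.29 ± 0.08 (0.08, uncalled, with library totals) and the E3 subunit Dld by 0.04 ± 0.08, which was not called.

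In the TCA cycle proper, Cs, the citrate synthase, had 197, 195 and 187 footprint CPM with Rapalink-1, 373, 379.8 and 366 with rapamycin, and 389.6, 422 and 375 with DMSO. Its RNA was at 156, 159 and 153 CPM with Rapalink-1, 158, 149 and 155 with rapamycin, and 128, 152 and 128 with DMSO. All 3 Rapalink-1 libraries were the lowest in footprints and above all DMSO libraries in RNA. The efficiency of Cs was 0.439 times the DMSO value (log2 -1.19 ± 0.08, adjusted p = 1.07e-18). Isocitrate dehydrogenase 3 has 3 subunits, and their efficiencies changed by -0.58 ± 0.08 for the catalytic Idh3a, -0.89 ± 0.08 for Idh3b and -0.19 ± 0.08 for Idh3g. The call of Idh3g (adjusted p = 0.0315) was lost without Rapalink-1 replicate 1 (-0.21), 2 (-0.21) or 3 (-0.17) or DMSO replicate 1 (-0.17), and it turned to 0.17 (adjusted p = 0.0498) with library totals.

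At the later steps Fh1, the fumarase, changed by -0.66 ± 0.07 in efficiency, Sucla2 and Suclg2, the ATP- and GTP-forming subunits of succinyl-CoA ligase, by -0.55 ± 0.09 and -0.41 ± 0.09, and Dlst, of the oxoglutarate dehydrogenase complex, by -0.45 ± 0.09. Their partners Suclg1 (-0.11 ± 0.09) and Ogdh (-0.16 ± 0.09) were not called. Mdh2, the mitochondrial malate dehydrogenase, had 440.0, 429 and 417 footprint CPM with Rapalink-1, 625, 602 and 564 with rapamycin, and 599, 614 and 597 with DMSO. Mdh1, its cytosolic counterpart, had 580.2, 626 and 576 with Rapalink-1, 558, 595 and 572 with rapamycin, and 563, 571 and 581 with DMSO. The efficiency of Mdh2 changed by -0.45 ± 0.08 (adjusted p = 2.84e-06) and that of Mdh1 by -0.10 ± 0.07 (adjusted p = 0.28).

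With Rapalink-1, 6 members fell in RNA, namely Slc2a1, Hk2, Pfkfb3 and Pgam1 of glycolysis, Rpia of the pentose phosphate pathway and Idh3a of the TCA cycle. Of these, Pgam1 and Idh3a were also called lower in efficiency. Counted in RNA, 15 of 38 members were higher and 6 lower than with DMSO, beside 19.4% and 18.8% of all 11271 genes. By pathway these were 6 and 4 in glycolysis, 2 and 1 in the pentose phosphate pathway and 7 and 1 in the TCA cycle. With library totals the split was 7 higher and 11 lower.

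Sites of the transcription factors HIF1 and MYC share a core. Among the members lower in RNA, the promoters of Slc2a1, Hk2 and Pfkfb3 are shown as examples. Each runs from 250 bases before to 50 after the listed start (RefSeq, GRCm38.p6), and capitals mark each ACGTG core on either strand (CACGT on the other), which includes the E-box CACGTG.
Slc2a1, chr4:119108495-119108794, plus strand: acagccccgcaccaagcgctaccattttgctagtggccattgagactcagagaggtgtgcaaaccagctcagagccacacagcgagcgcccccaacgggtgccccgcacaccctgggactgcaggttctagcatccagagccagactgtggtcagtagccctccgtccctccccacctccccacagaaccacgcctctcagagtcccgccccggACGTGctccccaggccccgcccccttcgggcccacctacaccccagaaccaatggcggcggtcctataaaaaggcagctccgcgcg
Hk2, chr6:82774405-82774704, minus strand: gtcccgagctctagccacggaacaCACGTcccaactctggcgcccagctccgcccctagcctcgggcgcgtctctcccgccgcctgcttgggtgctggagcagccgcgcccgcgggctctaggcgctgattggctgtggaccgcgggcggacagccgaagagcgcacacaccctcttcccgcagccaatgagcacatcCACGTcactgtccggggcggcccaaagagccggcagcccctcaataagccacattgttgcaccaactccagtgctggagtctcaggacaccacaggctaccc
Pfkfb3 (start 1 of 2), chr2:11553880-11554179, minus strand: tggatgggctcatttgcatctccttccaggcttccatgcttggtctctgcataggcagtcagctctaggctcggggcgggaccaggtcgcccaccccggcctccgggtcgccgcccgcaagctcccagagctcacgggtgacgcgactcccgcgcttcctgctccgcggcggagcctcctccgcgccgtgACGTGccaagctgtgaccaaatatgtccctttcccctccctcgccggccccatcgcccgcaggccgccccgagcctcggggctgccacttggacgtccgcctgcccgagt
Pfkfb3 (start 2 of 2), chr2:11502041-11502340, minus strand: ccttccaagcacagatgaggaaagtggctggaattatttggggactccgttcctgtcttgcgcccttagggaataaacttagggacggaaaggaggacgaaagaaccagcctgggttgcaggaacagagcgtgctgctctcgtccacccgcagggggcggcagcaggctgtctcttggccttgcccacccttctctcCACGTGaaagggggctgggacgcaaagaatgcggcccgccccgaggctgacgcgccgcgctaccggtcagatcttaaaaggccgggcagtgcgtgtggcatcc
Such a core stood in 6447 of 32851 listed promoters of all genes (19.6%) and in 23 of 54 listed for members (42.6%), with 13 of 26 in glycolysis, 1 of 8 in the pentose phosphate pathway and 9 of 20 in the TCA cycle. The E-box stood in 2349 of all promoters (7.15%) and in 6 of the 54 (11.1%). Most of the TCA cycle promoters with a core, and all of those with an E-box, were starts of a single gene, Ogdh. Counted by gene, 15 of 37 members had a core in at least 1 listed promoter (40.5%) and 4 had an E-box (10.8%). The share by gene over all genes was not counted, so these 2 shares cannot be set against the shares of promoters. A gene with several listed starts has more chances to hold a match. In the counts of promoters, members with several listed starts count once per start, and a match is not a site in use. Members with higher RNA held cores too. A listed promoter of Ldha had 5 matches and another of Pfkm had 3, counted on both strands. For both genes all Rapalink-1 libraries lay above all DMSO libraries in RNA. A link between cores and RNA changes was not tested.

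Pfkfb3, which makes the activator fructose 2,6-bisphosphate, had 4.68, 5.67 and 4.04 RNA CPM with Rapalink-1, 10.7, 10.5 and 10.7 with rapamycin, and 12.8, 12.2 and 14.0 with DMSO. Its footprints were at 19.1, 21.2 and 22.2 CPM with Rapalink-1, 30.3, 31.5 and 35.7 with rapamycin, and 65.6, 63.8 and 59.3 with DMSO. In both assays the Rapalink-1 libraries were lowest and the DMSO libraries highest. Against DMSO, Rapalink-1 changed RNA by -1.43 ± 0.16 (adjusted p = 1.35e-09), footprints by -1.60 ± 0.09 (adjusted p = 3.75e-18) and efficiency by -0.13 ± 0.18 (adjusted p = 0.582).

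Hk2, the inducible hexokinase that traps glucose in the cell, had 30.4, 30.5 and 34.9 RNA CPM with Rapalink-1, 49.0, 45.5 and 44.4 with rapamycin, and 46.5, 56.4 and 45.3 with DMSO. Its footprints were at 80.9, 83.6 and 82.9 CPM with Rapalink-1, 74.1, 68.8 and 68.4 with rapamycin, and 109, 113 and 115 with DMSO. RNA was low with Rapalink-1 alone, while footprints were low with both drugs. Against DMSO, Rapalink-1 changed its RNA by -0.64 ± 0.09 (adjusted p = 7.14e-08) and its footprints by -0.44 ± 0.06 (adjusted p = 1.98e-07).

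Slc2a1, the glucose transporter GLUT1, had 8.72, 8.63 and 10.2 RNA CPM with Rapalink-1, 8.94, 11.2 and 8.09 with rapamycin, and 13.2, 16.5 and 11.1 with DMSO. Its RNA changed by -0.59 ± 0.15 with Rapalink-1 (adjusted p = 0.00198). Its footprint call with Rapalink-1 (-0.22 ± 0.09, adjusted p = 0.0448) was lost when Rapalink-1 replicate 1 (-0.15) or 2 (-0.20) or any 1 DMSO library was left out (-0.23 to -0.21), and was 0.05, uncalled, with library totals. Rpia, which makes ribose 5-phosphate, had 16.1, 15.9 and 17.3 RNA CPM with Rapalink-1, 19.1, 16.8 and 17.1 with rapamycin, and 20.0, 28.3 and 28.4 with DMSO. Its RNA changed by -0.63 ± 0.12 and its footprints by -0.81 ± 0.13 with Rapalink-1 (adjusted p = 3.93e-05 and 1.06e-06).

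**Figure D3:**
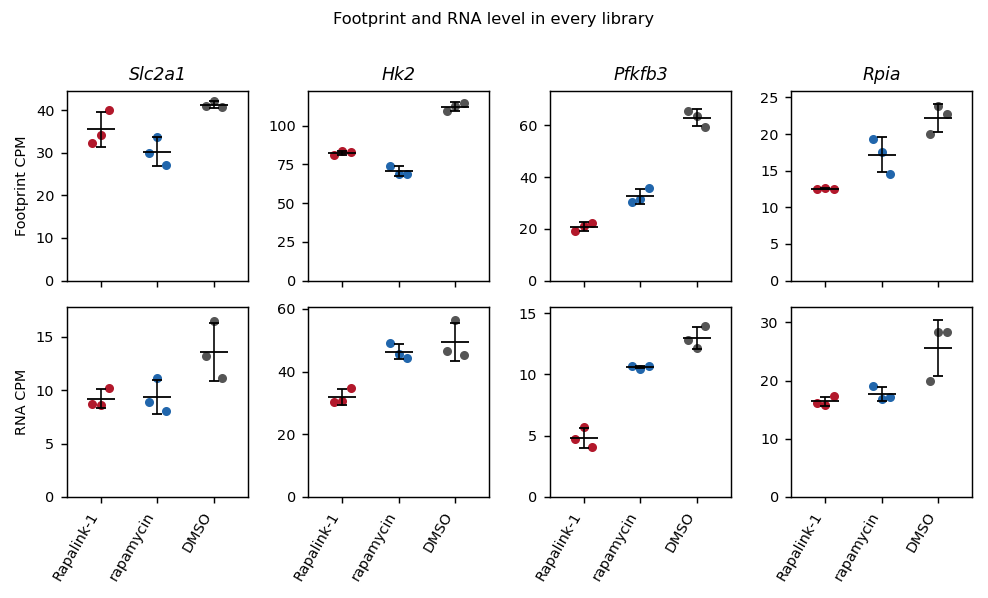
Footprint CPM (upper row) and RNA CPM (lower row) of Slc2a1, Hk2, Pfkfb3 and Rpia in every library, by treatment on the x axis, with points for the 3 libraries and mean and SD as line and bar. RNA of Pfkfb3 lies at 4.04 to 5.67 CPM with Rapalink-1, below rapamycin and DMSO.

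In footprints, which combine both kinds of change, 30 of 38 members were lower and 1 was higher with Rapalink-1 against DMSO, beside 28.0% and 25.7% of all 11281 genes. The lower ones were 12 of 15 glycolytic, 7 of 7 pentose phosphate and 11 of 16 TCA cycle genes, with median changes of -0.30, -0.81 and -0.35 against 0.01 over all genes. With library totals 19 were lower and 6 higher, and the median of all genes shifted by 0.27. In the authors' deposited table of footprints, the 31 members called here had the same sign in 31 cases, and in that of efficiency 24 of 24 did. Those tables come from the same libraries, so the shared signs are not independent support.

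**Figure D4:**
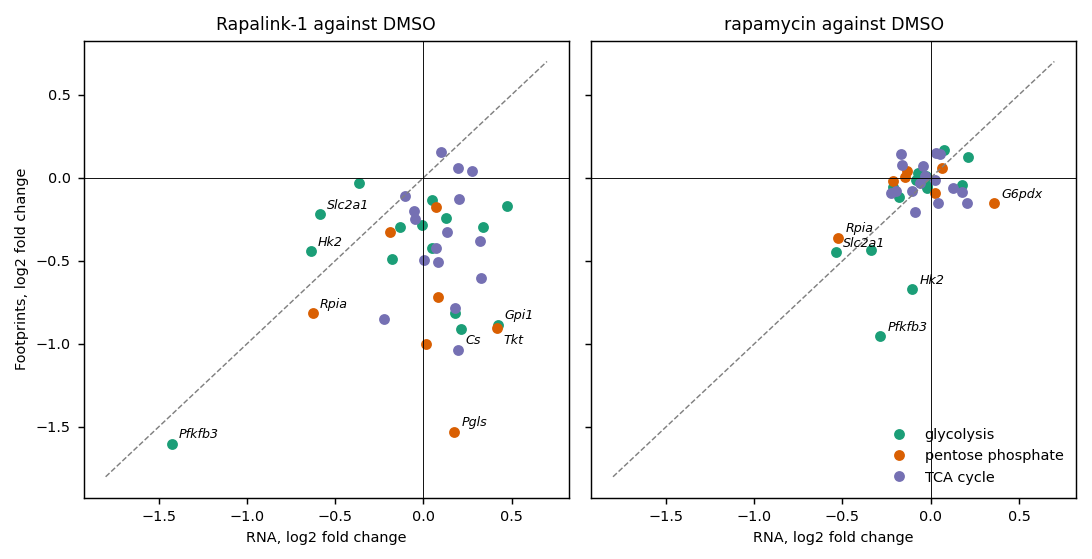
Log2 fold change in RNA (x axis) and in footprints (y axis) of the 38 genes for Rapalink-1 (left) and rapamycin (right) against DMSO, coloured by pathway, and on the dashed line the changes are equal. Pgls, Tkt, Gpi1 and Cs lie below the line at RNA changes of 0.17 to 0.42, while Pfkfb3 lies near it at -1.43 in RNA.

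With rapamycin, Hk2 and Pfkfb3 had the largest falls among the members in efficiency and footprints. Of 38 members, 7 fell and 2 rose in efficiency against DMSO, beside 9.85% and 6.52% of all genes tested. The 2 that rose, Suclg1 (0.32 ± 0.09) and Dlat (0.24 ± 0.08), became 0 without rapamycin replicate 3, 1 without rapamycin replicate 1 or DMSO replicate 1, and 4 without DMSO replicate 3. The 7 that fell became 4 without rapamycin replicate 1 or 3. With library totals 5 rose and 4 fell. Hk2 fell by 0.56 ± 0.10 in efficiency (adjusted p = 6.53e-05) and by 0.67 ± 0.06 in footprints (adjusted p = 2.03e-10), with an RNA change of -0.10 ± 0.08 that was not called. Pfkfb3 fell by 0.67 ± 0.16 in efficiency and by 0.95 ± 0.08 in footprints (adjusted p = 0.00161 and 3.75e-11), with RNA at -0.29 ± 0.15 and not called.

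G6pdx had higher RNA with rapamycin, at 32.0, 33.3 and 35.3 CPM against 22.5, 27.3 and 29.4 with DMSO, a change of 0.36 ± 0.10 (adjusted p = 0.00515) that was lost without DMSO replicate 1 (0.25). Its efficiency changed by -0.51 ± 0.12 (adjusted p = 0.00138). In footprints 6 of 38 members were lower and 0 higher, beside 9.4% and 8.75% of all genes, while 4 were higher at an unadjusted p under 0.05 and DESeq2 called 1 higher. The 6 were Slc2a1, Hk2, Pfkfb3, Rpia, Pdha1 and Dld. In RNA 9 were lower and 5 higher, beside 10.5% and 13.6%, and among the lower were Slc2a1 (-0.54 ± 0.15), Rpia (-0.53 ± 0.12), Tpi1 (-0.21 ± 0.04) and Pgk1 (-0.18 ± 0.04). The call of Slc2a1 in RNA was lost without rapamycin replicate 3 (-0.44) or DMSO replicate 2 (-0.38). Eno1 was among the higher (0.21 ± 0.04, adjusted p = 0.000381).

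Set against rapamycin, Rapalink-1 lowered efficiency of 25 members and raised that of 3, beside 23.9% and 26.1% of all genes, and with library totals of 16 and 9. The doses of the drugs differ, at 50 nM and 5 nM. The 3 raised were Hk2 (0.80 ± 0.11, adjusted p = 8.64e-09), Pfkfb3 (0.53 ± 0.18, adjusted p = 0.0117) and G6pdx (0.30 ± 0.12, adjusted p = 0.0266). That of Pfkfb3 was lost without Rapalink-1 replicate 3 (0.38), and that of G6pdx without Rapalink-1 replicate 1 (0.29) or 3 (0.26) or rapamycin replicate 1 (0.28) or 2 (0.30). RNA of Hk2 and Pfkfb3 was lower with Rapalink-1 than with rapamycin by -0.54 ± 0.09 and -1.14 ± 0.16 (adjusted p = 2.05e-06 and 2.43e-07). In footprints 28 were lower and 2 higher, beside 27.6% and 25.4%, and in RNA 5 were lower and 18 higher, beside 21.5% and 19.6%. With library totals these became 16 and 6 in footprints and 10 and 11 in RNA.

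The pathways took different shares of footprints, given here relative to the library total. Pentose phosphate genes held 0.0926, 0.0932 and 0.0931% of footprints with Rapalink-1, 0.135, 0.132 and 0.132% with rapamycin, and 0.132, 0.132 and 0.126% with DMSO. Glycolytic genes held 0.94, 0.952 and 0.96% with Rapalink-1, 1.11, 1.14 and 1.1% with rapamycin, and 1.06, 1.1 and 1.1% with DMSO. TCA cycle genes held 0.387 to 0.398% with Rapalink-1, 0.414 to 0.43% with rapamycin and 0.408 to 0.422% with DMSO. All 3 shares were lowest with Rapalink-1, without overlap.

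Ratios of pathways within a library do not depend on its scaling. The ratio of pentose phosphate to glycolytic footprints was 0.0978 ± 0.0008 with Rapalink-1, 0.119 ± 0.003 with rapamycin and 0.12 ± 0.005 with DMSO (SD, n = 3 each). Rapalink-1 and DMSO differed by -0.29 on the log2 scale without overlap (2-sided exact permutation p = 0.1, the smallest that 3 against 3 libraries can give). Without the member of most counts in each pathway, Tkt and Pkm among them, the difference was -0.06. In RNA the same ratio was 0.165 ± 0.003 with Rapalink-1, 0.145 ± 0.003 with rapamycin and 0.154 ± 0.001 with DMSO, a difference of 0.10 from DMSO (exact p = 0.1) that turned to -0.06 without those members. The ratio of glycolytic to TCA cycle footprints was 2.42 ± 0.06 with Rapalink-1, 2.65 ± 0.09 with rapamycin and 2.64 ± 0.11 with DMSO, a difference of -0.12 between Rapalink-1 and DMSO (exact p = 0.1). For glycolysis and the TCA cycle the difference of the median changes had the other sign (0.05), while for the pentose phosphate pathway and glycolysis the medians given above, -0.81 and -0.30, lay in the same order as the ratio.

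**Figure D5:**
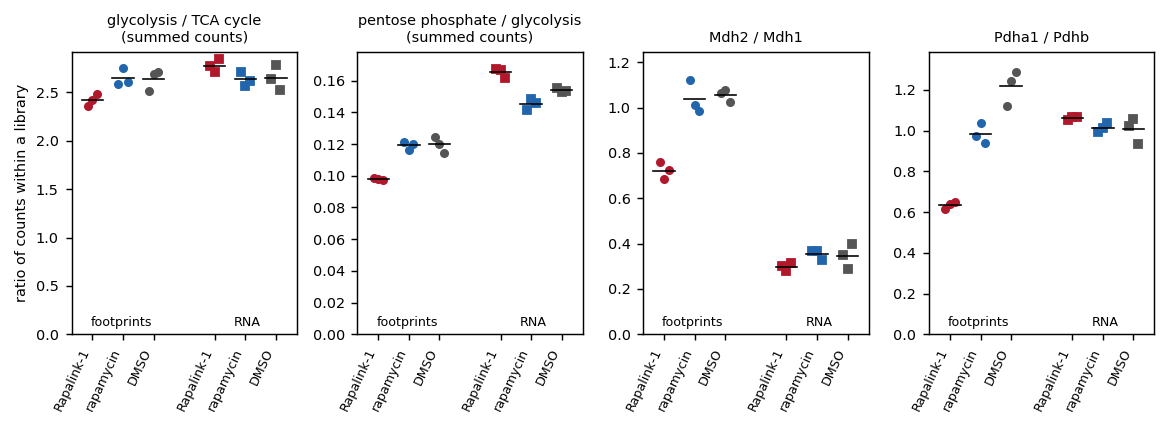
Ratio of counts within each library (y axis, from 0) for 2 pathway pairs and 2 gene pairs, with footprints (circles) and RNA (squares) by treatment. Points are the 3 libraries and lines their means. The ratio of Mdh2 to Mdh1 in footprints lies at 0.686 to 0.758 with Rapalink-1 and at 1.03 to 1.08 with DMSO.

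Pairs of related genes gave ratios of the same kind. Mdh2 to Mdh1 was 0.758, 0.686 and 0.724 in Rapalink-1 footprints, 1.12, 1.01 and 0.986 in rapamycin footprints, and 1.06, 1.08 and 1.03 in DMSO footprints, a log2 difference of -0.55 from DMSO (exact p = 0.1). In RNA this ratio overlapped between Rapalink-1 and DMSO (-0.20, exact p = 0.3). Pfkl to Pfkm in RNA was 1.09, 1.08 and 1.06 with Rapalink-1, 1.3, 1.15 and 1.32 with rapamycin, and 1.42, 1.51 and 1.4 with DMSO (-0.42, exact p = 0.1), while in footprints it overlapped (0.04, exact p = 0.7). Suclg2 to Sucla2 differed by 0.18 in footprints between Rapalink-1 and DMSO, without overlap (exact p = 0.1), and overlapped in RNA (0.05, exact p = 0.3). Aldoa to Aldoc differed by -0.88 in footprints and by 0.57 in RNA, both without overlap (exact p = 0.1 each). Pfkp to Pfkm overlapped in footprints (-0.17, exact p = 0.6) and differed by -0.63 in RNA without overlap (exact p = 0.1). The ratios with Aldoc and Pfkp rest on low counts. The ratios of Ldha to Ldhb and Hk2 to Hk1 were not analysed here.

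For 2 subunit pairs chosen after their values were seen, no test is given. Pdha1 to Pdhb was 0.614, 0.639 and 0.65 in Rapalink-1 footprints, 0.976, 1.04 and 0.941 in rapamycin footprints, and 1.12, 1.25 and 1.29 in DMSO footprints. Idh3b to Idh3g was 0.628, 0.62 and 0.592 in Rapalink-1 footprints, 0.904, 0.939 and 0.896 in rapamycin footprints, and 0.914, 0.988 and 0.98 in DMSO footprints. In RNA the log2 difference between Rapalink-1 and DMSO was 0.08 for the first pair and 0.05 for the second, and libraries overlapped.

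Without drug the members differed in footprints per RNA. A gene's length cancels in this ratio only if both assays were counted over the same stretch of the transcript, which no source used here states. In DMSO the median log2 ratio was 0.66 in glycolysis, 0.03 in the pentose phosphate pathway and 0.55 in the TCA cycle, against 0.01 over 10978 genes. The highest was that of Pgd at 3.47, 3.52 and 2.86 (log2), followed by Pfkfb3 at 2.36, 2.39 and 2.09 and Mdh2 at 2.23, 2.41 and 2.13.

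Other genes of the pathways were taken from lists beside the members. In efficiency with Rapalink-1 against DMSO, 3 of 10 other glycolytic genes rose and 4 fell, 1 of 2 other pentose phosphate genes rose, 1 of 9 genes of pyruvate entry rose and 3 fell, and 1 of 20 other TCA cycle genes rose and 13 fell, beside 22.3% of all genes that rose and 19.9% that fell. Slc16a1, the lactate transporter MCT1, rose by 0.53 ± 0.07 (adjusted p = 2.1e-08), and H6pd, the glucose 6-phosphate dehydrogenase of the endoplasmic reticulum, by 0.87 ± 0.22 (adjusted p = 0.00105). Slc25a12, an aspartate-glutamate carrier, changed by -1.02 ± 0.12, Got2, the mitochondrial aspartate transaminase, by -0.77 ± 0.07, Aco1, the cytosolic aconitase, by -0.73 ± 0.09, and Pcx, which makes oxaloacetate from pyruvate, by -0.55 ± 0.09.

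Txnip, Tigar and Pdp1 changed in both RNA and footprints with Rapalink-1. Txnip, an inhibitor of glucose uptake, had 40.6, 39.2 and 38.1 RNA CPM with Rapalink-1, 11.6, 8.71 and 12.3 with rapamycin, and 6.995, 7.92 and 8.26 with DMSO. Its RNA rose by 2.36 ± 0.12 and its footprints by 2.91 ± 0.11 with Rapalink-1 (adjusted p = 5.17e-20 and 1.82e-24), and by 0.49 ± 0.15 and 0.62 ± 0.13 with rapamycin. Tigar, a fructose bisphosphatase that lowers glycolytic flux, had 8.47, 6.37 and 7.54 RNA CPM with Rapalink-1, 16.6, 19.1 and 15.97 with rapamycin, and 21.4, 19.2 and 18.7 with DMSO (-1.41 ± 0.14 for Rapalink-1 against DMSO, adjusted p = 2.08e-11). Pdp1, the phosphatase that activates pyruvate dehydrogenase, rose with both drugs, by 1.37 ± 0.13 in RNA with Rapalink-1 and by 1.06 ± 0.13 with rapamycin (adjusted p = 1.13e-11 and 4.49e-08).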

How the data were processed

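Footprint and total RNA libraries were both made with the ARTseq kit from the same lysates, per the labels. Reads were assigned to build GRCm38 (mm10), per the submitters' processing notes, while no source used here names the aligner, the counting tool or the annotation release. The deposited values are whole-number read counts per transcript without normalization. The log2 fold changes and the p-values of the authors' deposited comparison tables were used only for gene symbols and to compare signs. No column was left unmapped to a sample.

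The 27382 rows were merged by equal counts or gene to 15307 features, and no member had rows that differed. Features without a symbol held 1.83 to 2.15% of reads and stayed in the fits. Counts passing filterByExpr (minimum count 10, total 15) were scaled by TMM and fitted with edgeR 4.0.16 (glmQLFit, robust, glmQLFTest; R 4.3.3), separately for the 9 libraries of each assay. For translational efficiency, all 18 libraries entered 1 fit, and the assay-by-treatment interaction was tested. P-values were adjusted by Benjamini-Hochberg over all genes, SE is the log2 change over the root of F, and the coefficient of biological variation was 5.72% in RNA, 6.38% in footprints and 6.05% jointly. The method was tested on simulated counts with as many rises as falls, so that test does not bear on the choice of scaling. Counting error adds to the biological variation and weighs more at low counts. The fewest reads in a library were 45 for Pfkfb3, 78 for Slc2a1 and 109 for Rpia. Ratios within a library used an exact permutation test.

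Replicate numbers were not used as pairs in the main fits, although RNA and footprints of 1 number may share a lysate. Members, lists and naming rule were chosen with earlier results of these data known. Values were given for the 4 largest falls and 2 largest rises per pathway in efficiency, the 2 smallest p-values per direction in the other assays, a set of enzymes always named and the 3 smallest p-values of each other list, and further members by role. Alternatives were library totals, DESeq2 1.42.0 size factors and Wald test, no filter, the compared treatments alone, rows summed, replicate blocks and each library left out.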

Additional observations from a re-analysis of the deposited data

How the results depend on the processing

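Library totals in place of TMM factors moved many counts of members. In lower and higher calls they gave 14 and 10 for efficiency, 19 and 6 for footprints and 11 and 7 for RNA with Rapalink-1 against DMSO, 4 and 5 for efficiency and 3 and 4 for footprints with rapamycin against DMSO, and 16 and 9, 16 and 6, and 10 and 11 with Rapalink-1 against rapamycin. Single genes that changed sign under library totals were, in efficiency with Rapalink-1 against DMSO, Tpi1 (0.13), Pgam1 (0.10), Eno1 (0.0429), Dlat (0.0803) and Idh3g (0.17), and against rapamycin Eno1 (0.0831) and Idh3g (0.0374). In footprints against DMSO they were Slc2a1 (0.0527), Pfkm (0.10), Eno1 (0.0322), G6pdx (0.10), Ogdh (0.0212) and Suclg1 (0.0724), and against rapamycin Pfkl (0.0794), Pfkm (0.0929) and Dlat (0.0145). In RNA they were Eno1 (-0.0105) against DMSO and Pdha1 (-0.004) against rapamycin. The alternative's construction, a shift of all genes, underlies these.

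With library totals, 123 of 186 calls of members kept sign and call, 45 kept the sign but were no longer called, and 18 changed sign. With 1 library left out at a time, 171 to 179 kept sign and call. The other alternatives moved fewer. DESeq2's Wald test kept 180 of 186, its size factors 184, no filter 184, the compared treatments alone 181 and rows summed 186. DESeq2 gave 1 member higher in footprints with rapamycin against DMSO and 1 with Rapalink-1 against rapamycin. The replicate block gave 3 higher in footprints with rapamycin against DMSO, and with it 185 of 186 calls held. The block by treatment and replicate number gave 1 higher in efficiency with Rapalink-1 against DMSO. Deviations of same-numbered libraries from their group means correlated between treatments by -0.176 to 0.0468 in RNA (0 of 9 pairs over 0.1) and -0.189 to 0.226 in footprints (5 of 9). Between RNA and footprints of a treatment they correlated by -0.0874 to 0.201 (3 of 9, all DMSO). Not every pair passed 0.1, and the main fits took no numbers as pairs. RNA and footprints came from the same lysates, so those of 1 number may be paired whatever the correlation. With the block by treatment and replicate number, which uses this pairing, all 61 efficiency calls of members kept sign and call. With 1 library left out at a time, members higher ranged from 0 to 2 in efficiency and 0 to 1 in footprints with Rapalink-1 against DMSO, 1 to 2 in footprints with Rapalink-1 against rapamycin, and 0 to 4 in efficiency, 0 to 2 in footprints and 3 to 5 in RNA with rapamycin against DMSO, where members lower in efficiency ranged from 4 to 7.

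The ratio of glycolytic to TCA cycle counts changed sign as a difference of median changes, in footprints for Rapalink-1 against DMSO (0.0547) and against rapamycin (0.0229) and in RNA against DMSO (-0.0646, and -0.0007 without the top members). That of pentose phosphate to glycolytic counts did so as a difference of medians in footprints for rapamycin against DMSO (0.025) and in RNA for Rapalink-1 against rapamycin (-0.0923), and without the top members in RNA for Rapalink-1 against DMSO (-0.0641) and against rapamycin (-0.0395). With 1 library left out, differences of rapamycin from DMSO ranged across 0: glycolytic to TCA cycle from -0.0277 to 0.026 in footprints and -0.0433 to 0.0288 in RNA, pentose phosphate to glycolytic from -0.0362 to 0.0245 in footprints, Aldoa to Aldoc from -0.40 to 0.11 in footprints, Mdh2 to Mdh1 from -0.0815 to 0.0107 in footprints and -0.0753 to 0.16 in RNA, and Suclg2 to Sucla2 from -0.0045 to 0.10 in footprints. So did Pfkl to Pfkm in footprints for Rapalink-1 against DMSO (-0.0157 to 0.0815) and against rapamycin (-0.0661 to 0.031), and Pfkp to Pfkm for Rapalink-1 against DMSO in footprints (-0.33 to 0.0536) and against rapamycin in RNA (-0.17 to 0.20). Their cause was not tested. Low counts limit Pfkp and Aldoc.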
